A study of Mus musculus with 36 samples.

Results

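Pax7 and the myogenic regulatory factors Myf5, Myod1 and Myog were 4 of 11337 genes measured by polyA RNA sequencing in muscle stem cells (MuSCs, also called satellite cells) of male mice. They were taken by gene symbol, each symbol had 1 row, and all 4 had a value in each of the 36 libraries, so none was lost to a filter on low values. Each library came from the MuSCs of 1 mouse, of a strain given as C56BL/6 in the sample labels and as C57BL6 in the design text. In the wheel cohort, 5 old (18 months) and 3 young (3 months) mice had a free running wheel for 3 weeks (O(+Ex) and Y(+Ex), called free-wheel here), and 7 old and 6 young mice had a locked wheel (O(-Ex) and Y(-Ex)). Their hindlimb MuSCs were sorted as viable VCAM-positive cells without CD31, CD45 or Sca1. In the Ccnd1 cohort, of the same ages, 3 mice were old with intact Ccnd1 (Ccnd1_+/+, O(WT)), and the young mice comprised 5 with both Ccnd1 copies floxed (Ccnd1_flox/flox, Y(KO)), 4 with 1 floxed copy (Ccnd1_+/flox, Y(HET)) and 3 with intact Ccnd1 (Y(WT)). All mice of that cohort, the WT mice included, carried the Pax7_CreERT2 and R26R_YFP alleles and received tamoxifen, and YFP-positive viable cells were sorted 6 weeks later. The sort therefore took cells that had expressed the Cre from Pax7 at the time of tamoxifen, and the labels do not say how the Cre insertion affects the Pax7 transcript.

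Pax7 encodes a paired-box transcription factor that marks MuSCs and is needed to maintain them in adult muscle. Myf5, MyoD (from Myod1) and myogenin (from Myog) are basic helix-loop-helix proteins that pair with E proteins, bind the E-box and turn on muscle genes. Myf5 and MyoD act in commitment and proliferation of myogenic cells, while myogenin acts later, when myoblasts leave the cell cycle, differentiate and fuse. Myod1 transcripts are low in resting MuSCs of undisturbed muscle and rise quickly when the cells are activated or dissociated.

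On mm10 (GENCODE M21), Pax7 (ENSMUSG00000028736) lies on the minus strand of chromosome 4 at 139737062 to 139833528. Myf5 (ENSMUSG00000000435) lies on the minus strand of chromosome 10 at 107482908 to 107486134. Myod1 (ENSMUSG00000009471) lies on the plus strand of chromosome 7 at 46376474 to 46379099. Myog (ENSMUSG00000026459) lies on the plus strand of chromosome 1 at 134289989 to 134292548. All 4 are protein coding, and no other annotated gene overlaps any of them on either strand, so reads of an antisense partner do not enter the values by this annotation.

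The Myog promoter is shown because Myog had the widest range of the 4 genes and is a textbook target of the other factors through its E-boxes. The window runs from 250 bases before to 50 after the RefSeq start (chr1:134289754-134290053, plus strand, GRCm38.p6, which is mm10), and capitals mark matches to CANNTG, the E-box, which reads the same on both strands. The letters TATAAA were also searched, on both strands, and were not matched in this window.
Myog promoter: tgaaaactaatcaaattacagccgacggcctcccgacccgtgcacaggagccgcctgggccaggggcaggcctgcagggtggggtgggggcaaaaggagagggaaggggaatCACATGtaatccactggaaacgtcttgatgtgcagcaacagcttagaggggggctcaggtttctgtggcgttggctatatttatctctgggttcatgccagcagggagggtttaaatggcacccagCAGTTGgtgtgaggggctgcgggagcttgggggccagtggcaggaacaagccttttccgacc
The E-boxes begin 138 and 12 bases before the start site and do not overlap. CANNTG occurred in 72.3% of 32851 RefSeq promoter windows of this length and TATAAA in 13.6% of them. CANNTG was not matched in the Pax7 and Myf5 windows, and TATAAA was matched in that of Myf5, 21 bases into the transcript. The letters alone describe the window and carry no measurement of binding.

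The libraries carried the markers of their labelled cell type. All 10 satellite cell markers checked (Pax7, Myf5, Calcr, Chodl, Fgfr4, Cdh15, Vcam1, Itga7, Sdc4 and Cxcr4) exceeded 1 RPKM in each of the 36 libraries, with values from 5.12 to 2490 RPKM (reads per kb of transcript and per 1e6 reads). The leukocyte genes Ptprc, Itgam and Cd3e were not among the genes analysed. Of 10 fibro-adipogenic genes, Pdgfra averaged 0.682 RPKM, but Gsn averaged 713 and Dpt 132 RPKM. Their sums ran from 594 RPKM in a HET library to 1520 in an old free-wheel library. RNA of genes for 2 proteins that the wheel-cohort sort excluded was present, with Ly6a (Sca1) at 40.4 to 120 RPKM and Pecam1 (CD31) at 9.11 to 28.8 RPKM. Ccnd1 followed the genotype, at 2.07 to 3.40 RPKM in KO, 6.37 to 8.13 in HET and 10.6 to 13.3 in young WT libraries. Sequencing depth per library could not be read from the values; the labels state 20 to 40 M reads. The log2 values lacked 6 directions of variation across libraries, so they had been adjusted before deposit. Of a contrast between young WT and young locked-wheel libraries 92.0% lay in the missing directions, and 96.0% of that between old WT and old locked-wheel libraries. The controls of the cohorts therefore cannot be compared, and the age effects seen in each cohort are not independent of each other. The missing directions also held 12.0% of the wheel contrast in old mice, 10.2% of that in young mice and 10.4% of their difference.

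Per length of transcript, Myod1 was the most abundant of the 4 genes, with a mean of 742 RPKM over the 36 libraries and rank 48 of 11337 genes. Myf5 averaged 191 RPKM (rank 247). Myog and Pax7 had similar means of 20.6 and 20.4 RPKM (ranks 2277 and 2292) but differed in how much they varied. The highest library exceeded the lowest 28.7-fold for Myog (3.06 to 87.9 RPKM), against 2.29-fold for Pax7 (14.2 to 32.5), 2.94-fold for Myod1 (368 to 1080) and 4.16-fold for Myf5 (72.4 to 301).

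**Figure D1:**
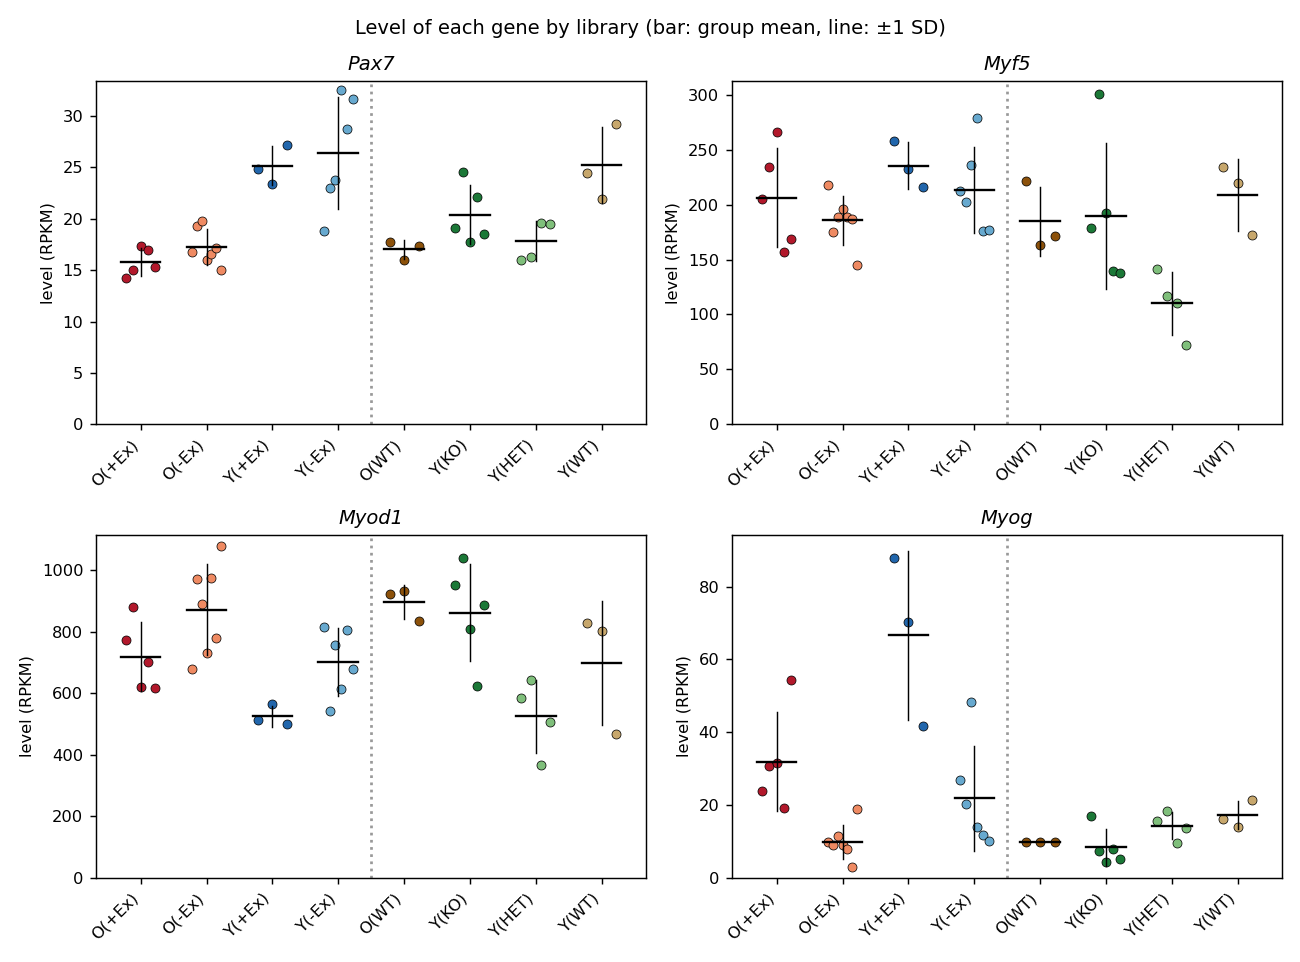
Level in RPKM (vertical axes from 0) of Pax7, Myf5, Myod1 and Myog in each library (points), by group, with the group mean (bar) and 1 SD to each side (line); the dotted line separates the wheel cohort on the left from the Ccnd1 cohort on the right. Myog spans 3.06 to 87.9 RPKM and is highest in Y(+Ex), Pax7 has its lowest means in the 3 old groups, whose range of 14.2 to 19.8 RPKM also holds the 4 Y(HET) libraries, and Myf5 is lowest in Y(HET).

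The orders of the group means that follow hold groups of both cohorts, whose controls cannot be compared, so a step between a group of one cohort and a group of the other is no comparison. The old groups had the lowest Pax7 means. From low to high, the group means were 15.8 RPKM in old free-wheel, 17.0 in old WT, 17.2 in old locked-wheel, 17.9 in HET, 20.4 in KO, 25.2 in young free-wheel, 25.2 in young WT and 26.4 in young locked-wheel libraries. The ranges of all neighbours in this order overlapped. The order of Myf5 began with HET at 110 RPKM, whose range did not overlap that of the next group, old WT at 185. The other Myf5 means ran up to 235 RPKM in young free-wheel libraries, with all further neighbours overlapping. Myod1 ran from 525 RPKM in young free-wheel and 526 in HET libraries, through 699 in young WT, 703 in young locked-wheel, 719 in old free-wheel and 863 in KO, to 872 in old locked-wheel and 897 in old WT libraries, with all neighbours overlapping. Myog ran from 8.40 RPKM in KO, 9.90 in old WT and 9.92 in old locked-wheel libraries, through 14.4 in HET, 17.2 in young WT and 21.9 in young locked-wheel, to 32.0 in old free-wheel and 66.6 in young free-wheel libraries. Neighbours overlapped there too, and the last step alone exceeded the larger SD.

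The first question was what 3 weeks of running changed in MuSCs of old mice. Myog was high in each of the 5 old runners, at 24.0, 30.8, 31.5, 19.2 and 54.3 RPKM, against a range of 3.06 to 18.9 with a median of 9.07 RPKM in the 7 old locked-wheel libraries. The groups did not overlap, which held for 447 of 11337 genes (3.94%). Myog was 3.38-fold higher, a log2 change of 1.76 ± 0.40 (SE), and it was called by limma over all genes (adjusted p = 0.0145), as were 838 genes (7.39%), 4.09% of all genes as higher and 3.3% as lower in runners. The call held when any of the 12 libraries was left out, with adjusted p values from 0.00922 to 0.0424.

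None of the factors that act earlier was called. Myod1 had 774, 882, 620, 701 and 618 RPKM in old runners, against 678 to 1080 with a median of 890 in old locked-wheel libraries. Its log2 change was -0.27 ± 0.12 and did not pass (limma adjusted p = 0.172), with 4 of 5 runners below the locked-wheel mean. Myf5 averaged 206 ± 45.3 RPKM in runners and 186 ± 22.1 in locked-wheel libraries (SD, n = 5 and 7), a log2 change of 0.13 with a 95% interval of -0.13 to 0.40 (limma adjusted p = 0.563). Pax7 averaged 15.8 ± 1.36 and 17.2 ± 1.72 RPKM in the same groups, a log2 change of -0.13 with an interval of -0.36 to 0.10 (adjusted p = 0.525).

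In young mice the same comparison set 3 free-wheel against 6 locked-wheel libraries. Myog had 87.9, 70.2 and 41.8 RPKM in young runners, against 10.1 to 48.4 with a median of 17.3 RPKM in locked-wheel libraries. The lowest runner lay below the highest locked-wheel library, replicate 3, so the groups overlapped, while 9.55% of all genes did not overlap. The fold was 3.39, a log2 change of 1.76 ± 0.49, and limma did not call it (adjusted p = 0.0862), while 127 of 11337 genes (1.12%) were called, 0.406% as higher and 0.714% as lower. Without young locked-wheel replicate 3 the change was 2.03 ± 0.45 and was called (adjusted p = 0.0309), and it was also called in a fit of all 36 libraries (adjusted p = 0.0416).

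Myod1 had 512, 564 and 500 RPKM in young runners, all below the locked-wheel mean, against 543 to 816 with a median of 718 in young locked-wheel libraries. Its log2 change was -0.41 ± 0.15 (adjusted p = 0.168, not called). Myf5 averaged 235 ± 20.9 RPKM in runners and 214 ± 39.3 in locked-wheel libraries, with a log2 change of 0.16 ± 0.15. Pax7 averaged 25.2 ± 1.91 and 26.4 ± 5.40 RPKM, with a log2 change of -0.04 ± 0.13. Neither passed (limma adjusted p = 0.673 and 0.907).

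Whether running acted differently on the 4 genes in old and young mice was tested as the difference of the log2 changes. It was 0.00 for Myog with a 95% interval of -1.33 to 1.33, 0.13 for Myod1 (-0.26 to 0.53), -0.02 for Myf5 (-0.44 to 0.40) and -0.08 for Pax7 (-0.44 to 0.28). None passed (limma adjusted p from 0.906 to 1), and 1 of 11337 genes was called (0.00882%). The interval for Myog is wide.

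**Figure D2:**
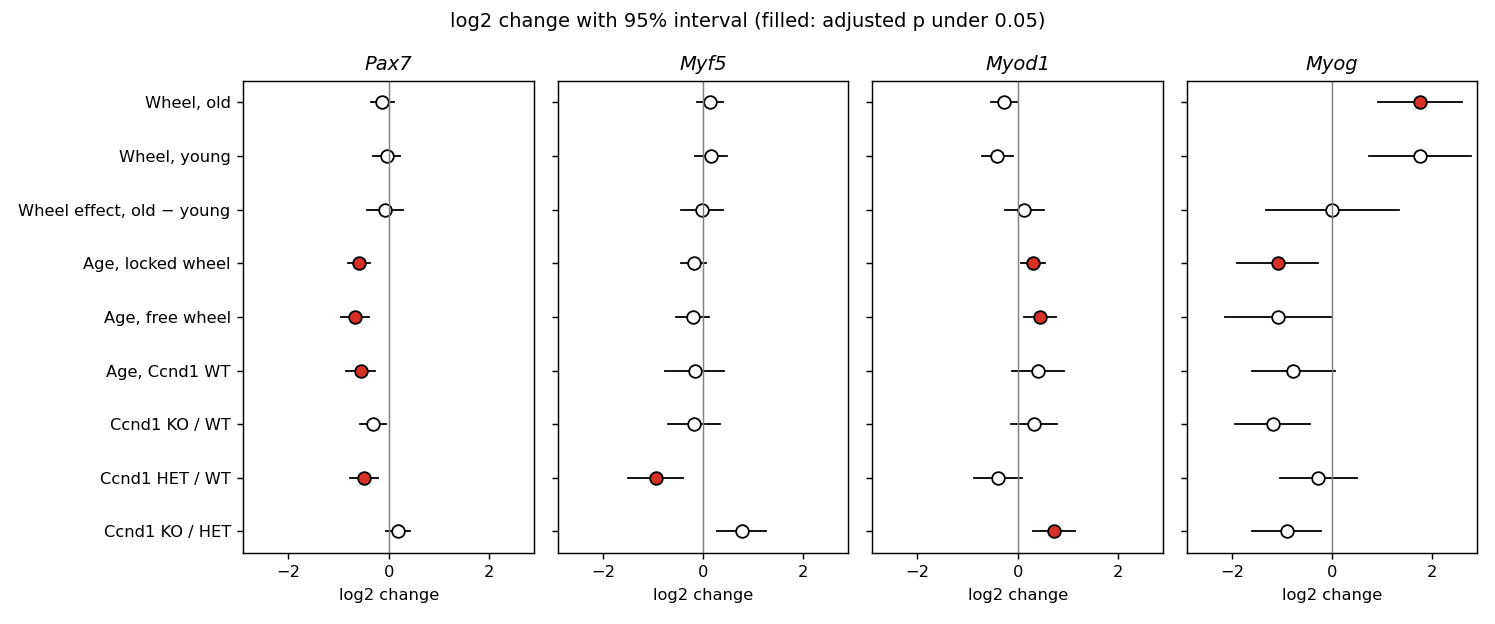
log2 change of each gene in the 9 comparisons (horizontal axis; tested over control group, rows from top to bottom) with its 95% interval from limma; filled points have an adjusted p under 0.05 over all 11337 genes. Pax7 is filled in all 3 age rows, which are not independent across the cohorts, and the Myog change is 1.76 with the wheel in both old and young mice.

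The ratio of Myog to Myod1 within a library does not depend on how that library was scaled. On the log2 scale it was -5.01, -4.84, -4.30, -5.19 and -3.51 in old runners, against -7.99 to -5.84 in old locked-wheel libraries. In young mice it was -2.54, -3.01 and -3.58 in runners, against -6.11 to -3.97 in locked-wheel libraries. The runners lay above all locked-wheel libraries of their age in both cases. As a geometric mean, 1 RPKM of Myog stood against 23.7 RPKM of Myod1 in old runners and 97.2 in old locked-wheel libraries, and against 8.24 in young runners and 37.0 in young locked-wheel libraries. Relative to Pax7 the log2 ratio of Myog averaged 0.93 ± 0.59 in old runners and -0.95 ± 0.83 in old locked-wheel libraries, and 1.34 ± 0.64 in young runners and -0.46 ± 1.09 in young locked-wheel libraries (SD). These ratios are given without a test.

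**Figure D3:**
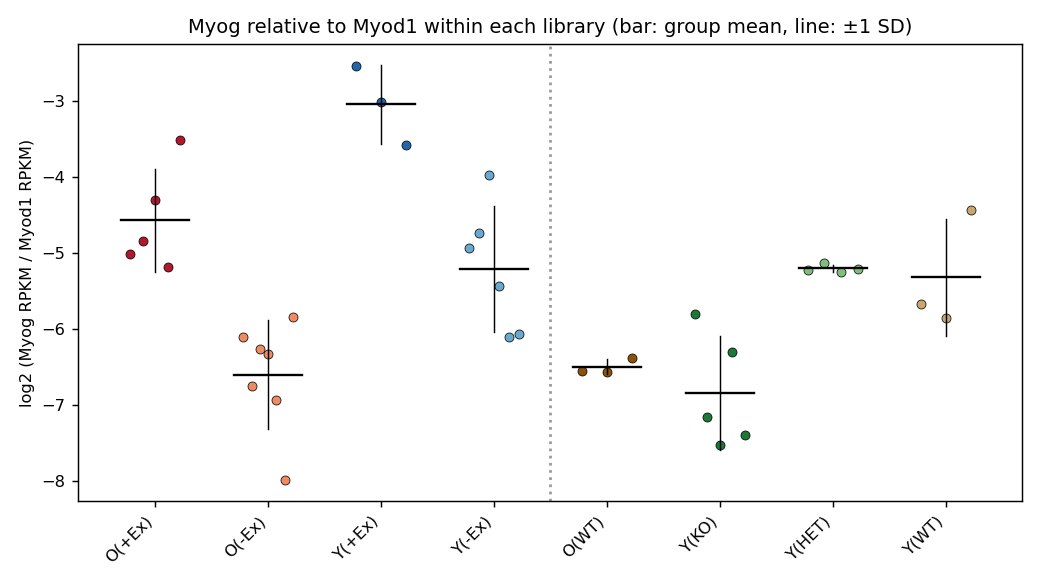
log2 ratio of Myog to Myod1 (vertical axis) in each library (points) by group, with the group mean (bar) and 1 SD to each side (line). Free-wheel libraries lie above all locked-wheel libraries of the same age, and KO libraries range from -7.52 to -5.80.

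Among genes of early muscle differentiation known to follow MyoD and myogenin, 19 of 33 listed symbols were measured. With the wheel in old mice, 2 of these 19 rose and none fell (10.5%, against 7.39% of all genes called), with a median log2 change of 0.23 against -0.01 over all genes. The genes that rose were Mymk, which encodes the fusion protein myomaker, and Chrna1, which encodes part of the acetylcholine receptor of muscle. Mymk had 6.13, 3.78, 5.48, 7.46 and 12.3 RPKM in old runners, against 0.426 to 4.10 in locked-wheel libraries (log2 1.97 ± 0.50, limma adjusted p = 0.0237). Chrna1 had 21.7 to 25.7 RPKM, against 13.2 to 20.1 without overlap, as for 3.94% of all genes (log2 0.58 ± 0.13, limma adjusted p = 0.0122). In young mice 1 of the 19 rose (5.26%, against 1.12% of all genes called), Chrna1 at 32.5 to 54.3 against 19.9 to 33.9 RPKM (log2 0.68 ± 0.16, limma adjusted p = 0.037). Mymk did not pass there (log2 1.33 ± 0.60, adjusted p = 0.285).

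None of the 3 E-protein genes (Tcf3, Tcf4 and Tcf12), whose products pair with the factors, was called for the wheel at either age. Of 14 measured genes for inhibitors of the factors or of their E-boxes, 2 fell in old runners (14.3%, against 7.39% of all genes called) and 1 fell in young runners (7.14%, against 1.12%). In old runners these were Id3, at 1340 ± 28.3 against 1710 ± 150 RPKM (log2 -0.35 ± 0.10), and Id2, at 117 ± 6.76 against 147 ± 13.0 RPKM (log2 -0.33 ± 0.10; limma adjusted p = 0.0333 and 0.0396). In young runners it was Id4, at a log2 change of -1.03 ± 0.23 (adjusted p = 0.0328). Id proteins bind E proteins and keep them from DNA. Srf, a serum response factor gene, fell at both ages, by 0.39 in old and 0.50 in young runners on the log2 scale (limma adjusted p = 0.00406 and 0.0086). It was the only called one of 17 upstream factors (5.88%, against 7.39% of all genes called in old and 1.12% in young runners). No gene among 9 measured cofactors was called, Myf6, Mef2a, Mef2c and Mef2d included. Of 18 satellite cell identity genes, Sox8 and Sdc4 fell in old runners (log2 -0.75 ± 0.19 and -0.32 ± 0.10) and none was called in young runners. Sox8 and Sdc4 made up 11.1% of the list, against 7.39% of all genes called in old runners.

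Markers of other cells in the wheel comparisons were as follows. None of 12 mature myofibre genes was called at either age, and their summed level was 57.1 to 168 RPKM in old runners and 64.0 to 213 in old locked-wheel libraries, and 241 to 450 RPKM in young runners and 147 to 757 in young locked-wheel libraries. In old runners 3 of 10 endothelial genes rose (30%, against 7.39% of all genes called), with sums of 151 to 219 against 105 to 166 RPKM in old locked-wheel libraries. None of 9 haematopoietic genes was called at either age, with sums of 56.7 to 98.2 RPKM in old runners and 36.4 to 76.7 in old locked-wheel libraries. Mural genes had the largest share called in old runners (44.4%), with 1 of 9 higher (Acta2, log2 0.55) and 3 lower (Pdgfrb at -0.65 and Abcc9 at -0.52 among them). Their sums were 205 to 265 against 164 to 222 RPKM in old locked-wheel libraries. Of 10 fibro-adipogenic genes Col15a1 rose (0.57, 10% of the list), of 6 tenocyte genes Mkx fell (-0.71, 16.7%), and no Schwann or keratinocyte gene was called. In young runners the Schwann gene Mbp fell (-0.71), 1 of 7 (14.3%, against 1.12% of all genes called), and no gene of the other marker lists was called. The part of these marker genes in the Myog difference was not tested. In bulk RNA, more cells that express a gene and more RNA of it per cell cannot be told apart.

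Old and young MuSCs were compared among locked-wheel mice, among runners and among WT mice of the Ccnd1 cohort. Pax7 fell with age in each, but the age effects of the cohorts are not independent of each other. With a locked wheel, Pax7 had 15.0 to 19.8 RPKM with a median of 16.8 in 7 old libraries, against 18.8 to 32.5 with a median of 26.2 in 6 young ones. All 7 old libraries lay below the young mean, and 5 lay below every young library. Pax7 was 1.51-fold lower (log2 -0.59 ± 0.11, limma adjusted p = 0.00016), where limma called 38.3% of the 11337 genes, 20.5% as higher and 17.8% as lower in old MuSCs. With a free wheel, Pax7 had 14.2, 15.0, 17.4, 17.0 and 15.3 RPKM in old mice, against 24.9, 23.4 and 27.2 in young mice, without overlap (40.5% of genes did not overlap). The log2 change was -0.68 ± 0.14 (limma adjusted p = 0.000666), where 38.2% of genes were called, 20.5% as higher and 17.7% as lower. In the Ccnd1 cohort, Pax7 had 17.7, 16.0 and 17.4 RPKM in old WT, against 24.5, 21.9 and 29.2 in young WT libraries (37.0% of genes did not overlap). There the log2 change was -0.56 ± 0.14 (limma adjusted p = 0.0149; 15.8% of genes were called, 8.03% as higher and 7.76% as lower), and without young WT replicate 3 it missed the threshold (adjusted p = 0.0673). The removed directions held 61.2% of this last contrast, 28.4% of the age contrast among locked-wheel mice and 0.0% of that among runners.

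Myod1 stood the other way. It had 678 to 1080 RPKM with a median of 890 in old locked-wheel libraries, against 543 to 816 with a median of 718 in young ones, and 4 of 7 old libraries exceeded every young library. It was called as higher in old mice (log2 0.31 ± 0.12, limma adjusted p = 0.0382). That call was lost without any 1 of 7 libraries, namely old locked-wheel replicates 2, 3, 5 and 7 and young locked-wheel replicates 2, 4 and 6 (adjusted p = 0.0564 to 0.11). With a free wheel, Myod1 averaged 719 ± 112 RPKM in old and 525 ± 34.4 in young mice (SD, n = 5 and 3) without overlap, as did 40.5% of all genes. Myod1 was called there at a log2 change of 0.44 ± 0.15 (limma adjusted p = 0.0252), as were 38.2% of genes. This call was lost without old free-wheel replicate 1 or 2 or young free-wheel replicate 1 or 3 (adjusted p = 0.0504 to 0.0867). Old WT libraries had 923, 933 and 834 RPKM, against 828, 802 and 467 in young WT libraries, a log2 change of 0.40 ± 0.24 that did not pass (limma adjusted p = 0.269).

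Myog was lower in old locked-wheel libraries, at 9.92 ± 4.75 RPKM against 21.9 ± 14.4 in young ones (SD, n = 7 and 6). All 7 old libraries lay below the young mean, and 5 lay below every young library. Myog was 2.12-fold lower (log2 -1.08 ± 0.38, limma adjusted p = 0.0317). It missed the threshold without old locked-wheel replicate 5 or 6 or young locked-wheel replicate 1, 2 or 3 (adjusted p = 0.0528 to 0.0887). Among runners Myog averaged 32.0 ± 13.5 RPKM in old and 66.6 ± 23.2 in young mice, a log2 change of -1.09 ± 0.50 (adjusted p = 0.0969, not called). Old WT libraries had 9.87, 9.86 and 9.98 RPKM, a range far narrower than in any other group, against 16.3, 13.9 and 21.5 in young WT libraries (log2 -0.78 ± 0.38, limma adjusted p = 0.182). Myf5 did not pass in any of the 3 age comparisons, with log2 changes of -0.19 ± 0.12, -0.21 ± 0.16 and -0.17 ± 0.28 (limma adjusted p = 0.22, 0.305 and 0.704). As a geometric mean, 1 RPKM of Pax7 stood against 50.2 RPKM of Myod1 in old and 26.8 in young locked-wheel libraries, against 45.3 in old and 20.9 in young runners, and against 52.7 in old and 27.1 in young WT libraries.

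All 3 E-protein genes fell in old locked-wheel libraries, with Tcf12 at 3.16 ± 0.363 against 4.60 ± 0.367 RPKM (log2 -0.55 ± 0.09) and Tcf3 at 6.73 ± 0.803 against 9.51 ± 1.71 RPKM (log2 -0.49 ± 0.11; limma adjusted p = 6.68e-05 and 0.000984). Tcf3 fell in runners (log2 -0.49 ± 0.14) and both fell in WT mice. Of the 14 inhibitor genes 2 rose and 3 fell in old locked-wheel libraries (35.7%), a share near the 38.3% of all genes called. Id2 rose (log2 0.39 ± 0.09) and so did Id1 (0.34 ± 0.10), while Snai2 (-0.58 ± 0.10) and Snai1 (-0.78 ± 0.20), which encode repressors that bind E-boxes, fell. Among the 17 upstream factors 3 rose and 4 fell (41.2%), also near that share. Eya2, a coactivator of sine oculis-type homeobox factors, was at 4.33 ± 0.618 in old and 0.807 ± 0.208 RPKM in young locked-wheel libraries (log2 2.45 ± 0.17, limma adjusted p = 7.31e-09), and it also rose in runners (2.95 ± 0.23) and in WT mice (2.42 ± 0.30). Of 9 cofactors 2 rose and 3 fell (55.6%), with Tle4 at 0.63 ± 0.13 and Mef2c, a partner of the factors in muscle gene activation, at -1.01 ± 0.21.

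Of the 19 differentiation genes 7 fell and 1 rose in old locked-wheel libraries (42.1%, near the 38.3% of all genes called), with a median log2 change of -0.43 against 0.01 over all genes. Chrna1 fell by 0.81 and Chrnd, another receptor subunit, fell by 2.89 on the log2 scale, while Musk, the receptor tyrosine kinase of the neuromuscular synapse, rose (0.44 ± 0.13). Chrnd was low, with means of 0.116 RPKM in old and 0.971 RPKM in young locked-wheel libraries. Among the 18 genes of satellite cell identity, 8 fell and 2 rose (55.6%, median -0.24). Fgfr4, a fibroblast growth factor receptor, and Itga7, a laminin-binding integrin, fell (log2 -0.71 ± 0.09 and -0.69 ± 0.09), and Cd34 rose (0.42 ± 0.09). Mature myofibre genes fell in 4 of 12 cases in the same comparison (33.3%, against 38.3% of all genes called). Their median log2 change was -1.08, with sums of 64.0 to 213 RPKM in old and 147 to 757 in young libraries. Among runners 8 of the 12 fell (66.7%, against 38.2% of all genes called, median -1.36), with sums of 57.1 to 168 RPKM in old and 241 to 450 in young mice. Their part in the age differences of Myog and the differentiation genes was not tested. Of 8 keratinocyte genes 3 rose with a locked wheel (37.5%, near the 38.3% of all genes called). Their sums were 14.9 to 20.9 RPKM in old and 6.43 to 10.2 in young locked-wheel libraries, although Krt14 itself was at most 0.105 RPKM there. Of 10 fibro-adipogenic genes 4 rose and 1 fell (50%), of 6 tenocyte genes 3 rose (50%, median 0.83), and of 7 Schwann genes 2 rose and 1 fell (42.9%). Shares below the 38.3% of all genes were those of 10 endothelial genes, where 3 rose (30%), 9 mural genes, where 1 rose and 1 fell (22.2%), and 9 haematopoietic genes, where 1 rose (11.1%). Tenocyte genes summed to 60.5 to 259 RPKM in old and 43.5 to 138 in young locked-wheel libraries, and endothelial genes to 105 to 166 RPKM in old and 94.3 to 142 in young ones. Their part in the age differences was not tested either.

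The Ccnd1 comparisons asked what loss of cyclin D1, which drives cells through G1, changed in young MuSCs. Myog had 17.1, 7.30, 4.40, 7.91 and 5.26 RPKM in KO, against 16.3, 13.9 and 21.5 in WT libraries. KO replicate 1 lay within the WT range, and the other 4 KO libraries lay below every WT library. The log2 change was -1.19 ± 0.34 (2.28-fold lower) and limma did not call it (adjusted p = 0.0537), where 793 of 11337 genes (6.99%) were called, 5.05% as higher and 1.94% as lower. Without KO replicate 1 it was -1.49 ± 0.23 and was called (adjusted p = 0.0118). Pax7 averaged 20.4 ± 2.86 RPKM in KO and 25.2 ± 3.67 in WT libraries (SD, n = 5 and 3), a log2 change of -0.31 ± 0.12 (limma adjusted p = 0.132). Myod1 averaged 863 ± 159 and 699 ± 201 RPKM (log2 0.33 ± 0.22), and Myf5 190 ± 66.6 and 208 ± 32.3 RPKM (log2 -0.18 ± 0.25), in KO and WT libraries, and neither passed (limma adjusted p = 0.36 and 0.676). The removed directions held 38.3% of this contrast.

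Although Myog itself missed the threshold, 6 of the 19 differentiation genes fell in KO libraries and none rose (31.6%, against 6.99% of all genes called), with a median log2 change of -0.38 against 0.02 over all genes. They included Stac3, needed for excitation-contraction coupling, at 0.904 ± 0.144 against 2.22 ± 0.631 RPKM (log2 -1.27 ± 0.23), and the sarcomere-associated gene Klhl41, at 0.186 ± 0.061 against 0.879 ± 0.347 RPKM (log2 -2.23 ± 0.41; limma adjusted p = 0.0104 and 0.0106). No mature myofibre gene was called, with sums of 127 to 177 RPKM in KO and 161 to 354 in WT libraries. Of 6 tenocyte genes 2 rose, Comp (log2 1.49) and Thbs4 (1.56), with a median of 1.02 and sums of 112 to 200 RPKM in KO and 29.1 to 141 in WT libraries. The endothelial gene Cldn5 rose too (0.91), 1 of 10, with sums of 118 to 152 RPKM in KO and 91.3 to 139 in WT libraries, and no gene of the other marker lists was called. The part of these genes in the KO differences was not tested. Of the 14 inhibitor genes 2 rose and none fell (14.3%). These were Hes1, a Notch effector, at 22.9 ± 6.07 against 10.3 ± 1.55 RPKM (log2 1.11 ± 0.21), and Msc, which encodes the MyoD antagonist musculin, at 189 ± 23.8 against 137 ± 0.941 RPKM (log2 0.46 ± 0.12; limma adjusted p = 0.0116 and 0.0329). Of the satellite cell identity genes Megf10 fell (log2 -0.67 ± 0.17), of the upstream factors Meox1 rose (1.09 ± 0.21), and no E-protein or cofactor gene was called.

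HET libraries had the lowest Myf5 of all groups. Myf5 had 141, 117, 110 and 72.4 RPKM in HET, against 234, 220 and 172 in WT libraries, without overlap (21.2% of genes did not overlap). The log2 change was -0.95 ± 0.26 (1.93-fold lower, limma adjusted p = 0.0458), where 611 of 11337 genes (5.39%) were called, 1.98% as higher and 3.4% as lower. Pax7 had 16.0, 16.3, 19.6 and 19.5 RPKM in HET, against 24.5, 21.9 and 29.2 in WT libraries, also without overlap (log2 -0.49 ± 0.13, limma adjusted p = 0.0418). Both calls lie close to the threshold. Myf5 lost its call without any 1 of the 7 libraries (adjusted p = 0.0502 to 0.174), and Pax7 lost it without any of them except HET replicate 3 (adjusted p = 0.0646 to 0.131 in those 6). Myod1 at 526 ± 119 RPKM and Myog at 14.4 ± 3.66 RPKM in HET did not pass against WT at 699 ± 201 and 17.2 ± 3.88 RPKM (limma adjusted p = 0.312 and 0.68).

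The same HET libraries carried keratinocyte RNA. The 8 measured keratinocyte genes summed to 155, 84.9, 123 and 204 RPKM in HET, against 6.99, 8.65 and 7.94 in WT and 5.76 to 9.35 in KO libraries, and 7 of the 8 were called as higher in HET than in WT. Krt14, a basal keratin, had 31.9 to 95.8 RPKM in HET libraries, against 0.00755 to 0.0184 in WT libraries. Of the other marker lists, Cldn5 and the mural gene Cspg4 were called as higher in HET (log2 0.77 and 0.83), and the fibro-adipogenic gene Gsn and Mkx as lower (-0.93 and -1.03). Fibro-adipogenic genes summed to 594 to 693 RPKM in HET and 806 to 1440 in WT libraries. The part of keratinocyte RNA and of these genes in the HET differences was not tested. The removed directions held 35.1% of the HET contrast. None of the 18 satellite cell identity genes was called for HET, with a median log2 change of -0.16 against -0.06 over all genes. Of the inhibitor genes Hes1 rose (log2 1.21 ± 0.22) and Msc fell (-0.44 ± 0.12), of the upstream factors Meox1 rose (1.29 ± 0.22), and of the 19 differentiation genes 3 fell and 1 rose (21.1%, against 5.39% of all genes called), with Stac3 at -1.17 ± 0.24 and the cell cycle inhibitor gene Cdkn1c at -1.06 ± 0.26.

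**Figure D4:**
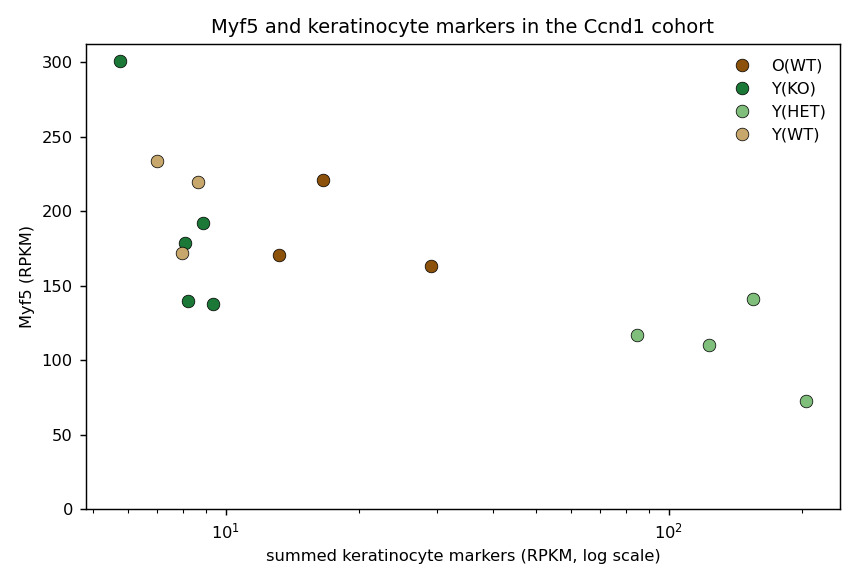
Myf5 level in RPKM (vertical axis) against the summed level of 8 keratinocyte genes in RPKM (horizontal axis, log scale) in the 15 libraries of the Ccnd1 cohort, coloured by group. HET libraries sit apart at 84.9 to 204 RPKM of keratinocyte genes and 72.4 to 141 RPKM of Myf5.

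In KO against HET, Myod1 was the one member called. Myod1 had 953, 1040, 810, 624 and 886 RPKM in KO, against 585, 643, 368 and 508 in HET libraries, and 4 of 5 KO libraries exceeded every HET library. The log2 change was 0.72 ± 0.20 (1.65-fold higher, limma adjusted p = 0.0456), where 685 of 11337 genes (6.04%) were called, 5.15% as higher and 0.891% as lower. This call was lost without HET replicate 1, 3 or 4 or KO replicate 1, 2, 3 or 5 (adjusted p = 0.0673 to 0.147). Myf5 averaged 190 ± 66.6 RPKM in KO and 110 ± 28.3 in HET libraries (log2 0.77 ± 0.23) and missed the threshold (adjusted p = 0.0586). Myog, at 8.40 ± 5.09 against 14.4 ± 3.66 RPKM, lay the other way (log2 -0.91 ± 0.32, adjusted p = 0.103) and was called without KO replicate 1 (log2 -1.21, limma adjusted p = 0.00817). Pax7 differed by 0.19 ± 0.11 (adjusted p = 0.34). Msc was higher in KO than HET libraries as well (log2 0.89 ± 0.11, limma adjusted p = 0.000711). The 4 HET libraries had log2 ratios of Myog to Myod1 between -5.25 and -5.13, against -7.52 to -5.80 in KO libraries, and the keratinocyte sums given above apply to this comparison too, with 7 of the 8 genes lower in KO. Of 6 tenocyte genes 3 were higher in KO than HET libraries (median 0.94), with sums of 112 to 200 RPKM in KO and 73.5 to 88.4 in HET libraries, and their part was not tested.

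Over the 36 libraries none of the 6 pairwise correlations of log2 values passed after adjustment over the 6 pairs (permutation tests with 100000 resamples, two-sided). The permutations treated all libraries as exchangeable, although libraries of 1 group share their treatment and cohort, so these p values are approximate. The pair with the lowest p was Myod1 and Myog, with Pearson's r = -0.37 (permutation p = 0.0243, adjusted p = 0.146) and Spearman's rho = -0.42 (permutation p = 0.0107, adjusted p = 0.0643). Without the 2 libraries farthest from the Myod1 median r was -0.48. After the group means were taken out r was 0.18. Pax7 and Myod1 had r = -0.33 (permutation p = 0.0489, adjusted p = 0.147), rho = -0.31 (permutation p = 0.0655, adjusted p = 0.135), r = -0.33 without 2 libraries and -0.34 within groups. The other 4 pairs had r from 0.14 to 0.28 with adjusted p values of 0.154 to 0.419. Within groups Pax7 and Myog had r = -0.32, against 0.14 over all libraries, and Myf5 and Myod1 had r = 0.19, against 0.26, which was -0.05 without 2 libraries. The cohorts differed here, with -0.48 and -0.28 for these pairs within groups of the wheel cohort and 0.09 and 0.51 in the Ccnd1 cohort. For Pax7 and Myod1 the wheel and Ccnd1 cohorts had -0.24 and -0.49, and for Myod1 and Myog 0.2 and 0.17. For Pax7 and Myf5 r was 0.02 within groups (0.05 and -0.01 by cohort), and for Myf5 and Myog 0.06 (0.09 and 0.02).

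The genes whose log2 values most resembled each member over the 36 libraries were sought among the 10395 genes that averaged 1 RPKM or more, as a description with no test, since libraries of 1 group share their treatment. Closest to Myog were Mymk (r = 0.86, and 0.75 after group means were removed), Stmn1 (0.84 and 0.39), the cardiac actin gene Actc1 (0.82 and 0.74), and the mitotic genes Ube2c (0.82 and 0.47) and Top2a (0.80 and 0.36). Mymk and Actc1 had the highest of these values within groups. Ube2c and Top2a averaged 1.03 and 1.08 RPKM, just above the floor of 1 RPKM. Closest to Pax7 were Tmem47 (0.86 and 0.49), Faap100 (0.85 and 0.57), Wdr91 (0.85 and 0.49), Nfib (0.83 and 0.27) and Nacc2 (0.83 and 0.51). The lowest correlation with Myf5 was that of Krt5, a basal keratin gene (r = -0.73, and -0.23 after group means were removed). Closest to Myf5 were Tmem38b (0.77 and 0.67), Tmed4 (0.75 and 0.62), Vgll3 (0.74 and 0.58), Bmp4 (0.74 and 0.48) and B3galnt2 (0.73 and 0.57). Those closest to Myod1 were Edem1 (0.82 and 0.61), the thioredoxin reductase gene Txnrd1 (0.82 and 0.56), Homer1 (0.80 and 0.48), Timm8a1 (0.80 and 0.56) and the splicing factor gene Srsf7 (0.79 and 0.53). The authors' deposited table gives each gene's correlation with Ccnd1, without saying over which libraries, as 0.652 for Myog, 0.42 for Myf5, 0.118 for Pax7 and -0.382 for Myod1.

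**Figure D5:**
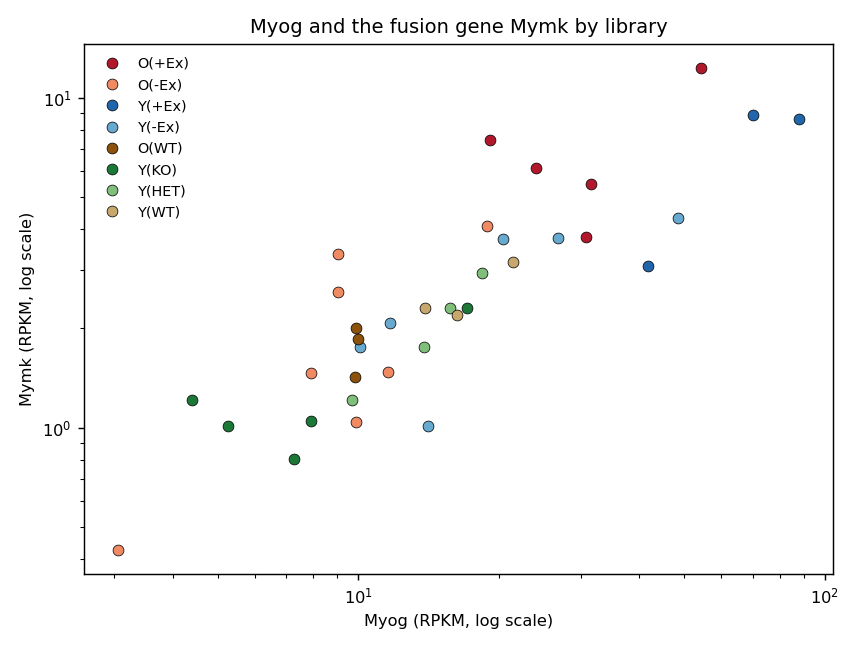
Mymk against Myog in each of the 36 libraries (both axes RPKM, log scale), coloured by group. Both genes are lowest in 1 old locked-wheel library at 3.06 RPKM of Myog and 0.426 of Mymk, and Mymk is highest in the old runner with 54.3 RPKM of Myog.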

How the data were processed

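PolyA RNA of sorted MuSCs was sequenced from 36 mice, 1 library per mouse. Per the labels, 10 ng of RNA was reverse transcribed with oligo(dT) primers and amplified with 13 to 15 PCR cycles, and 101 bp paired reads were made. The submitters' processing notes name Trim Galore, STAR, featureCounts (Subread) and the mm10 build, without versions or a strand setting. The deposited values are RPKM for 11337 genes without zeros. That unit was read from the values, since the products of value and exon length (kb) added up to between 958293 and 1204774 in each library. The centred log2 values had rank 29 of a possible 35, so 6 directions had been removed, by a step that none of the labels or headers describes. The deposited correlation of each gene with Ccnd1 is a score of the authors.

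Log2 RPKM without a pseudocount was fitted with limma 3.58.1 (R 4.3.3, statmod 1.5.0; eBayes with trend and robust) within each cohort, with 1 mean per group. Calls needed a Benjamini-Hochberg adjusted p under 0.05 across the 11337 genes. With the 8 group means taken out, the log2 values had rank 24 where 28 was expected. The fits counted the missing directions as degrees of freedom, so the spread between mice can be understated and these p values too small. They are therefore approximate, and rest on the spread between mice that was left in the values. The procedure was tested on simulated data with independent normal noise for each gene. No directions were removed from those data, so that test does not show how far the removed directions affect the p values. The members and gene lists were chosen with earlier results of these data known. All 4 members were named, with up to 2 called genes per list, direction and comparison by lowest p, and the 5 genes most like each member by Pearson's r. A few further genes (Mymk in young mice, Krt14, Krt5, Pdgfra, Gsn, Dpt, Ly6a and Pecam1) were chosen after their values were seen. Python 3.11.15 with numpy 2.4.6, scipy 1.17.1 and matplotlib 3.10.9 served for description and figures. Alternatives were another scaling, a pseudocount, a filter, plain eBayes, other sets of libraries, a replicate block and leaving out each library.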

Additional observations from a re-analysis of the deposited data

How the results depend on the processing

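Depth per library is unknown, so counting error could not be set beside any value. No clear pairing of the mice by replicate number was seen. The check could not exclude one, since the removed directions are no longer in the values. Over 30 same-numbered pairs in 8 comparisons the deviations from group means correlated at -0.26 to 0.30, 7 pairs exceeded 0.1, and 10 libraries correlated best with their own number. For each change below the cause was not tested.

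The replicate block gave log2 changes of 0.03 for Pax7 with the wheel in young mice, 0.35 for Myog in the difference of the wheel effects and 0.09 for Myf5 in KO against WT, each of the other sign and not called. With the block Myod1 for age with a locked wheel (0.25), Pax7 (-0.53) and Myf5 (-0.78) for HET lost their calls, and Myf5 in KO against HET (0.87) gained one. It called 14 genes for the young wheel comparison against 127, 1 for KO against 793, 179 for HET against 611 and 262 for KO against HET against 685.

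With only the groups compared in the fit, Myod1 (0.31) and Myog (-1.08) for age with a locked wheel and Pax7 (-0.49) and Myf5 (-0.95) for HET lost their calls, as did Myod1 (0.72) in KO against HET, and Myog gained one for age with a free wheel (-1.09) and in WT mice (-0.78). It called 22, 379, 300 and 327 genes for the wheel in young mice, KO, HET and KO against HET. In 1 fit of all 36 libraries Myog with the wheel in young mice (1.76) and Myf5 in KO against HET (0.77) gained calls, and Myod1 lost them for age with a locked (0.31) and a free wheel (0.44). Plain eBayes lost Myod1 for age with a locked wheel (0.31) and in KO against HET (0.72) and Pax7 (-0.49) and Myf5 (-0.95) for HET, and with it 84 genes passed for the young wheel comparison. Median-of-ratios scaling lost Pax7 (-0.44) and Myf5 (-0.90) for HET and Myod1 in KO against HET (0.64), and called 343 genes there. With log2(RPKM + 1), 2 genes were called for the difference of the wheel effects. The filter at 1 RPKM changed no call of the 4 genes.

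When 1 library was left out, the log2 changes ranged from 1.53 to 2.06 for Myog and -0.14 to 0.02 for Pax7 with the wheel in young mice. For the difference of the wheel effects they ranged from -0.30 to 0.23 for Myog, -0.12 to 0.07 for Myf5 and -0.15 to 0.01 for Pax7. For age they ranged from 0.24 to 0.37 for Myod1 and -1.27 to -0.81 for Myog with a locked wheel, 0.36 to 0.49 for Myod1 with a free wheel and -0.65 to -0.45 for Pax7 in WT mice. They ranged from -1.49 to -1.0 for Myog in KO against WT, -0.59 to -0.38 for Pax7 and -1.08 to -0.76 for Myf5 in HET against WT, and 0.56 to 0.84 for Myod1 and -1.21 to -0.72 for Myog in KO against HET. Over the omissions 351 to 923 genes were called for the wheel in old mice, 5 to 205 in young mice, 1 to 5 for their difference, 873 to 1366 for age in WT mice, 98 to 938 for KO, 68 to 621 for HET and 265 to 743 for KO against HET. Myog with the wheel in old mice and Pax7 for age with a locked or free wheel kept direction and call under all alternatives run.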

Other observations

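Libraries with low or high Myog were also looked up for Mymk, Actc1 and Chrna1. Mymk and Actc1 were picked for their likeness to Myog over the same 36 libraries, so part of their likeness here was given in advance. Old locked-wheel replicate 6 had the lowest Myog of all libraries (3.06 RPKM), with Mymk at 0.426 and Actc1 at 0.0602 RPKM. Old locked-wheel replicate 7 had the highest Myog of its group (18.9 RPKM), with Mymk at 4.10 and Actc1 at 16.8 RPKM and the highest Myod1 of all libraries (1080 RPKM). Old free-wheel replicate 5 had 54.3 RPKM of Myog, 12.3 of Mymk and 20.7 of Actc1, and young locked-wheel replicate 3 had 48.4, 4.32 and 27.9 RPKM. Chrna1 was at 14.2, 20.1, 25.7 and 29.6 RPKM in these 4 libraries, where the old locked-wheel libraries ranged from 13.2 to 20.1 RPKM and the young ones from 19.9 to 33.9 RPKM. Summed mature myofibre genes in these 4 libraries were 77.6, 64.0, 105 and 464 RPKM. Young free-wheel replicates 1 and 2 had the highest Myog of all libraries (87.9 and 70.2 RPKM), with Mymk at 8.65 and 8.89 RPKM. Their Actc1 was at 11.3 and 20.3 RPKM, against 14.6 in replicate 3, which had 41.8 RPKM of Myog. The library with the highest Myog thus had the lowest Actc1 of its group.

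Myf6, the remaining member of the myogenic factor family, averaged 2.67 RPKM and was not called in the wheel comparisons, in age with a locked wheel, or for KO or HET against WT. Its lowest group mean was that of HET libraries, at 1.76 RPKM with a range of 0.627 to 2.44, against 2.65 RPKM in young WT libraries (log2 -0.77 ± 0.34, limma adjusted p = 0.189). By a Dixon test, no library stood apart in log2 level for any of the 4 genes, in 20 sets of 4 to 7 libraries. O(WT) replicate 2 had 2.92 RPKM of Krt14, where O(WT) replicates 1 and 3 had 0.0109 and 0.00919.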
